A study of Mus musculus with 3 samples.

Results

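Long noncoding RNAs are transcripts that are often capped, spliced and polyadenylated like messenger RNAs but have no long open reading frame. In this set, a gene counted as an expressed long noncoding RNA if GENCODE M21 gives it the type lincRNA or antisense (no gene has the third type of the rule, lncRNA) and if it reached at least 5 TPM and 20 expected counts in each of 3 libraries. TPM is a level scaled for transcript length and depth, and an expected count is an estimated number of reads. The limits were met by 185 of the 8813 genes of these types, or 2.1%, among 55536 annotated genes. They comprised 112 of 5854 lincRNA genes and 73 of 2959 antisense genes. These names are annotation types, and genes of both types can share exonic bases with other genes. For comparison, 8226 of 22028 protein-coding genes met the same limits, or 37.3%.

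The libraries were polyA plus RNA-seq of primary mouse regulatory T cells that the labels call inflammation-experienced, from a male adult of 16 weeks of the strain Foxp3GFP-DTRCD4CreERT2R26tdTomato. The strain name carries GFP with the diphtheria toxin receptor at Foxp3, a tamoxifen-dependent Cre under Cd4 and a tdTomato reporter at the Rosa26 locus. The origin of the cells is given as the whole organism, so no organ is known. The genes were chosen by their measured levels in these libraries. All 3 libraries form 1 group, technical replicates of 1 biological replicate from 1 donor, with no second condition. Each SD below is the spread between these libraries (n = 3) and holds no variation between animals.

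Depth over annotated genes was 20942875, 18402479 and 17494966 expected counts, and 3 counts on 1 kilobase stood for 0.230 to 0.251 TPM. Each of 12 genes of a regulatory T cell list passed 1 TPM in every library, from Foxp3 at 74.4 to Trbc2 at 4125 TPM. Of 15 markers of other cell types, 10 passed that limit, led by Ighm, an antibody heavy chain, at 1486 TPM and the globin Hbb-bs at 494 TPM, while Ncr1, S100a8 and Pf4 had at most 0.06, 0.19 and 0.23 TPM in any library. In RNA of a cell population, few cells of a type and little RNA per cell cannot be told apart, and the part of other cells in the levels below was not tested.

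Some of these RNAs have known roles. Malat1 and Neat1 are nuclear RNAs, and Neat1 is the scaffold of paraspeckles, which are nuclear bodies. Small nucleolar RNA (snoRNA) host genes carry, mostly in their introns, the small RNAs that guide modification of ribosomal RNA, and microRNA host genes carry the hairpins from which microRNAs are cut. Other long noncoding RNAs act on the gene beside them, and Flicr, next to Foxp3 in regulatory T cells, is the best studied of these here.

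Most of the 185 genes were expressed at low to moderate levels. The median of the mean levels was 15.0 TPM, with a range of 5.79 to 5223 TPM. A mean of 10 TPM was reached by 136 genes, 20 TPM by 67, 50 TPM by 24, 100 TPM by 11 and 1000 TPM by 2. Together they held 1.17, 1.18 and 1.28% of the TPM of libraries 1, 2 and 3, and 0.744, 0.782 and 0.785% of the expected counts. Malat1 alone gave 40.6, 42.2 and 46.4% of their summed TPM, and the 3 highest genes gave 61.1, 59.1 and 60.4%. These 3 include Gm26917, with 31670, 27576 and 7545 expected counts. It lies in a stretch of mm10 known to hold a copy of the ribosomal RNA precursor, as described below, and shares without Gm26917 were not computed. These levels were used to choose the genes and are therefore a description without a test.

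Genes just inside and just outside the limits were nearly alike. The lowest minimum among the 185 was that of Gm45606, at 12.02, 11.3 and 5.03 TPM in libraries 1, 2 and 3. The minima of 5430431A17Rik and Gm15441 were 5.05 and 5.07 TPM. Of the genes left out with enough counts, C030034L19Rik had a minimum of 4.94 TPM, Gm42495 of 4.92 and Gm26789 of 4.90. Another 7 genes had 5 TPM but too few counts. The highest of these was the snoRNA host gene Snhg9, with 12.03, 11.8 and 11.2 TPM from only 21, 19 and 18 expected counts. CR974462.1 and Bc1 followed, with minima of 7.37 and 6.78 TPM.

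Malat1 (chromosome 19, 5795690 to 5802672, minus strand, mm10) was listed highest, at 4745, 4977 and 5948 TPM. Library 3 was the highest and the mean was 5223 ± 639 TPM. Nearly all of that level was assigned to 1 short transcript. Malat1-203, of 485 bases, held 98.2, 97.9 and 97.8% of the TPM of the gene and 77.7, 74.1 and 73.5% of its expected counts. The full-length Malat1-201, of 6983 bases and 1 exon, received 7610, 8870 and 10946 expected counts, which amount to 84.3, 107 and 132 TPM. The short transcript received 26465, 25435 and 30353 expected counts, and TPM divides reads by length. If all reads of the gene were counted on Malat1-201, an alternative chosen after seeing the data, Malat1 would stand at 377, 413 and 498 TPM, and its mean of 429 TPM would be below those of AW112010 and Gm26917.

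The same end of the locus holds Gm37376, a gene of 453 bases on the opposite strand (5801941 to 5802393) whose type, TEC, is kept for transcripts that still await experimental proof, so that it is outside the set. Gm37376 received 32412, 31442 and 35571 expected counts, or 6160, 6497 and 7356 TPM. Its exon covers 37.5% of the bases of Malat1-203. The sources used here do not state whether the reads keep their strand, and without strand, reads from a gene and its antisense partner cannot be told apart.

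Neat1 (chromosome 19, 5824708 to 5845478, minus strand) also had most of its level on a short transcript. The gene stood at 98.9, 103 and 81.5 TPM, lowest in library 3. The short transcript Neat1-202, of 3004 bases, held 94.3, 91.6 and 94.4% of the TPM, while the long Neat1-201, of 20771 bases, held 2.29, 2.88 and 3.56%. In expected counts the long transcript took 14.4, 17.8 and 20.8%, or 611, 736 and 719 reads. The short form is polyadenylated, whereas the long form, which builds paraspeckles, ends in a triple helix instead of a polyA tail, and these libraries were selected for polyA. The part of this selection in the shares was not tested. All 6 genes of a list of paraspeckle proteins were detected, with a median of 191 TPM, from Pspc1 at 14.9 to Hnrnpk at 2022 TPM. The last 80 bases of these transcripts are shown because they differ in the polyadenylation signal AATAAA, which is in capitals (5′ to 3′, GENCODE M21 transcripts on mm10, all from the minus strand). Malat1-201 lies at chr19:5795690-5802672, Neat1-202 at chr19:5842307-5845476, Neat1-201 at chr19:5824708-5845478 and AW112010-202 at chr19:11047612-11055808.
Malat1-201: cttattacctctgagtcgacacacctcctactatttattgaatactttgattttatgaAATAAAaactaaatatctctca
Neat1-202: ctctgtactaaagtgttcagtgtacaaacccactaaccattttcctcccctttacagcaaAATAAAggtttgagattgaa
Neat1-201: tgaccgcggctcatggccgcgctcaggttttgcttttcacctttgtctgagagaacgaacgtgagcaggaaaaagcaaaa
AW112010-202: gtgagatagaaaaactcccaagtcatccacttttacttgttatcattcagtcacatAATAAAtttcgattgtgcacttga
Neat1-201 has no AATAAA in this stretch, nor do the last 120 bases of Malat1-203. These are annotated ends, and AATAAA there does not show that the RNA in these cells, that of Malat1 included, carries a polyA tail.

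**Figure D1:**
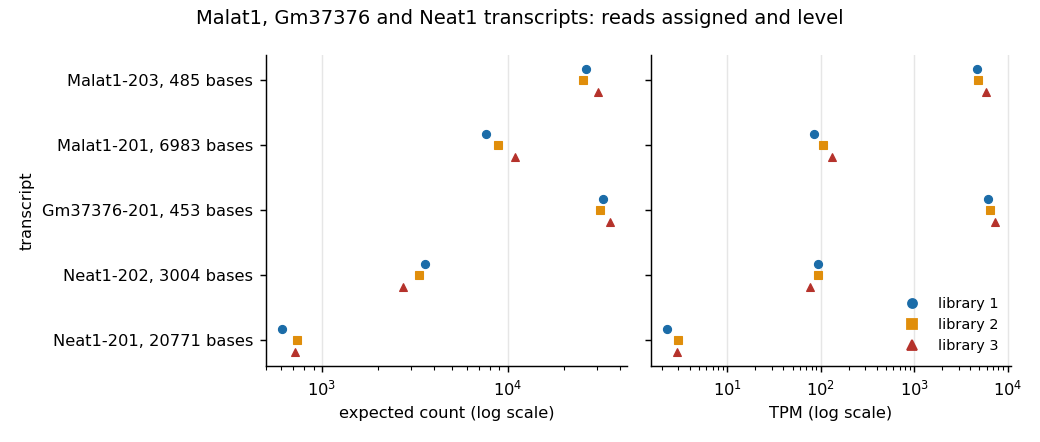
Expected counts (left) and TPM (right), both on log axes, of transcripts of Malat1, of Gm37376 on the opposite strand, and of Neat1, with 1 point per library. Malat1-203 and Malat1-201 are less than 4-fold apart in counts but far apart in TPM, since the first has 485 bases and the second 6983.

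AW112010 (chromosome 19, 11047612 to 11055808) was the other RNA above 1000 TPM, at 1656, 1295 and 1599 TPM. It is induced in stimulated immune cells and is known to be translated from a noncanonical reading frame in macrophages. Library 2 was the lowest, and 97.6 ± 0.54% of the level came from AW112010-202, whose end is shown above. A second gene table of the same libraries, made with GENCODE M4, held 488, 485 and 473 counts for it, against 12484, 9002 and 11086 expected counts here. That table has 22457 rows, holds only 6 of the 185 genes and gives no counting rule.

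The next RNAs were less well known. Gm15564 (chromosome 16, 35966752 to 35983230), annotated against Parp9, stood at 232, 349 and 324 TPM, above Parp9 at 81.8 TPM. A630023P12Rik on chromosome 5 had 227 ± 18.6 TPM, Gm26740 on chromosome 10 191 ± 16.5 TPM and Gm2682 on chromosome 15 160 ± 35.2 TPM. 2310001H17Rik on chromosome 6 had 142 ± 25.0 TPM, and 1810058I24Rik, also on chromosome 6 and known to encode a small mitochondrial protein, had 113 ± 7.78 TPM. Gm37401, at 104 ± 15.2 TPM, has 93.4% of its bases in exons of Rhoa, a small GTPase gene of the opposite strand at 277 TPM.

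Well-known RNAs followed at the level of Neat1. Tug1 (chromosome 11, 3639785 to 3649673), which acts in gene silencing, had 102, 87.6 and 120 TPM. Lncpint, induced by p53, varied little, with 93.7, 95.4 and 88.3 TPM over many transcripts, of which Lncpint-215 held 37.7 ± 2.77% of the TPM. 1700020I14Rik (chromosome 2, 119594297 to 119607502) is Cyrano, which pairs with the microRNA miR-7. It had 75.1, 60.5 and 79.1 TPM, and here too the share depended on the unit. The 1381-base transcript took 63.7% of the TPM but 22.2% of the expected counts, and the 8300-base transcript took 36.3 and 77.8%. In 15 of the 185 genes the TPM share of the leading transcript, that with the highest TPM, exceeded its count share by more than 20 percentage points.

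**Figure D2:**
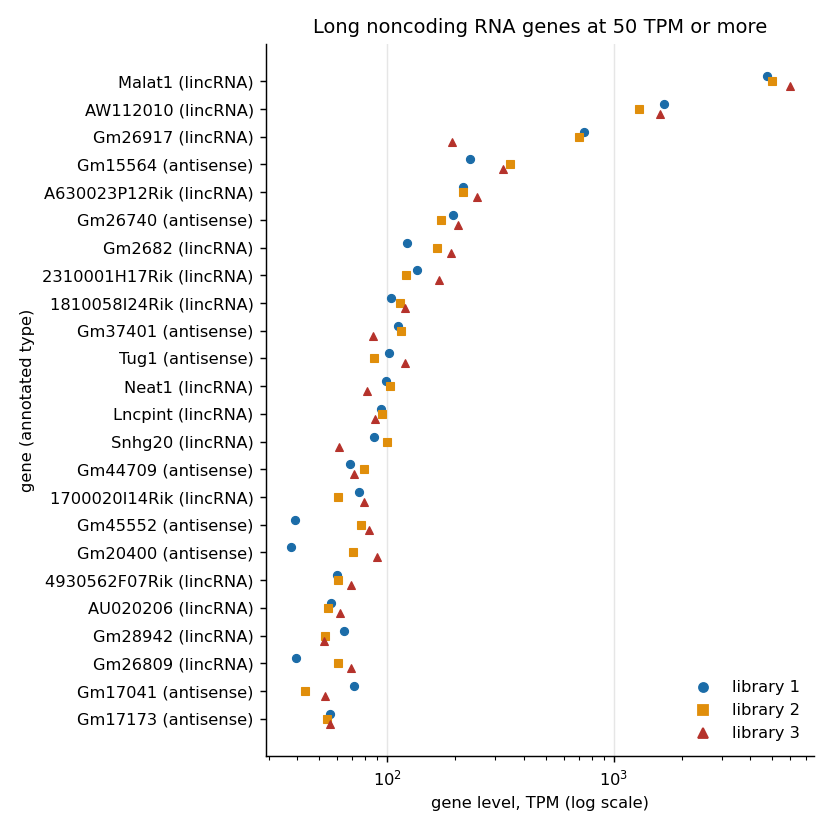
Levels in TPM (log axis) of the 24 long noncoding RNA genes with a mean of at least 50 TPM, 1 point per library, ordered by mean. Gm26917 is far lower in library 3 than in the other libraries, and Gm45552 and Gm20400 are lowest in library 1.

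The chosen list of 75 well-known noncoding RNA names had 66 annotated genes, of which 21 were in the set and 15 passed the same limits under other gene types. Gt(ROSA)26Sor (chromosome 6, 113067428 to 113077333), the Rosa26 transcript at whose locus the reporter of this strain sits, was expressed at 42.4, 31.1 and 49.99 TPM, although it was not on that list. 2900097C17Rik, the mouse Norad, which binds Pumilio proteins, had 28.8, 26.7 and 16.0 TPM, and Pvt1, beside Myc, had 26.5, 27.4 and 29.6 TPM. Ftx and Jpx, which lie beside Xist and promote it in females, had 12.7 ± 0.731 and 6.49 ± 0.779 TPM, while Xist itself was at 0.22, 0.03 and 0 TPM in this male. Airn, the paternally expressed antisense RNA of Igf2r, had 6.49 ± 1.18 TPM. Kcnq1ot1, a very long imprinted RNA, stayed outside at 2.29 TPM despite 2160, 2393 and 3281 expected counts. H19, Hotair, Pantr1 and Snhg18 had 0 counts in each library, which allows up to the 3 counts stated above.

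The structure of these genes differed from that of protein-coding genes meeting the same limits. The leading transcript had a median of 957 bases and 2 exons, against 2303.5 bases and 8 exons. It was a single exon in 27 genes, or 14.6%, against 1.76%. Only 1 transcript is annotated for 81 genes, or 43.8%, against 5.79%. The leading transcript took a median of 98.0% of the TPM, against 63.7%. The motif AATAAA, searched on the transcript strand only, lay in the last 50 bases of 76 leading transcripts, or 41.1%, against 60.3% of protein-coding ones. The variant ATTAAA without AATAAA was in 11.4 and 13.4%. These shares describe annotated ends and are given without a test.

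Many of these genes share exonic sequence with a neighbour, which bears on their values. The leading transcript had no base in an exon of another gene in 109 of 185 genes, 76 of 112 lincRNA and 33 of 73 antisense genes. It overlapped exons of the opposite strand in 67 genes, and by more than 50% of its bases in 26. Examples are Gm44709 (72.8 TPM) against the elongation factor gene Supt5 at 184 TPM, and Gm17041 (56.1 TPM) against Cish, a cytokine signalling inhibitor, at 155 TPM. The posterior SD of the expected count, the authors' measure of how surely reads were assigned, had a median of 0% of the count in the 109 genes without overlap and 5.25% in the 26. It exceeded 10% in 10 genes, 9 of them antisense. Gm44170, wholly within exons of the translocon gene Sec61a1, was the least certain at 39.8%. The only lincRNA of the 10 was Gm10076, at 25.5% without any exonic overlap.

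The nearest protein-coding gene overlapped 94 of the 185 genes, on the opposite strand in 86 and on the same strand in 8. Of the others, 54 were in tandem with it, 21 head to head and 16 tail to tail, and 13 genes (7.03%) started within 1 kb of a divergent protein-coding start. The neighbours were mostly expressed genes. Of 181 distinct neighbours, 147 had at least 1 TPM in each library, or 81.2%, against 47.4% of all protein-coding genes. Among long noncoding RNAs without exonic overlap the share was 82 of 108, or 75.9%. The RNA was lower than its neighbour in most pairs, with a median ratio of 0.467, and 71 exceeded it, 63 of them in every library. AW112010 is such a case, since its neighbour Ms4a8a had 0.22 TPM.

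Hosts of snoRNAs were few in the set. An annotated snoRNA lay within the gene on the same strand in 4 of 185 genes, or 2.16%. The share is near that of protein-coding genes that met the limits, 166 of 8226 (2.02%). It is higher than among all genes of the set's own types, expressed or not, where 41 of 8813 hold one. These shares were not tested. Snhg12 (chromosome 4, 132308623 to 132311024) holds 5 annotated snoRNA genes, 2 of them overlapping entries for Snora16a. It had 13.8, 24.5 and 28.3 TPM, lowest in library 1. Snhg6 (chromosome 1, 9941959 to 9944118), host of Snord87, was steadier at 23.2, 27.0 and 23.9 TPM. 2700038G22Rik, host of Snord93, had 6.75, 9.41 and 8.73 TPM, and Epb41l4aos, host of the snoRNA Gm23639, had 10.7, 11.4 and 7.51 TPM.

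The snoRNA sequences are shown because they are the known product of these hosts, with the box letters that were found in capitals (5′ to 3′, GENCODE M21 on mm10). C/D snoRNAs, named Snord, carry a C box and a D box and guide methylation. H/ACA snoRNAs, named Snora, end with ACA before the last bases and guide pseudouridine formation. Snord87 lies at chr1:9942463-9942549 on the minus strand, and the others on the plus strand, Snora16a at chr4:132309464-132309600, Snora44 at chr4:132309941-132310069, Snora61 at chr4:132310240-132310369, Snord99 at chr4:132310691-132310764 and Snord93 at chr5:23852210-23852280.
Snord87: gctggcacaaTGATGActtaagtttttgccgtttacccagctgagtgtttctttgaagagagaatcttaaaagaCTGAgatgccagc
Snora16a: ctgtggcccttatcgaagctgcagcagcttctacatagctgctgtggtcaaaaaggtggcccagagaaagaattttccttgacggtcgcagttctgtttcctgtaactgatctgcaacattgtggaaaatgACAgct
Snora44: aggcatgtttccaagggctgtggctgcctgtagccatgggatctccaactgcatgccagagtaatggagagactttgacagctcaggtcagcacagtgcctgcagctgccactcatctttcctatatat
Snora61: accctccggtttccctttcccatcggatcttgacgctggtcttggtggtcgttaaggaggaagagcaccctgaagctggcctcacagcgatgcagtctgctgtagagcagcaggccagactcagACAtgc
Snord99: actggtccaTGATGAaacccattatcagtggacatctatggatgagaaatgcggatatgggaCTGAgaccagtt
Snord93: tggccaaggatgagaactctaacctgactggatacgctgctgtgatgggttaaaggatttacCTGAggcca
On the snoRNA strand, TGATGA occurs in 74 of 98 annotated Snord genes (75.5%) and CTGA in all 98, and ACA stands 3 bases before the end in 35 of 42 Snora genes (83.3%). Of the sequences printed here, Snord93 holds CTGA but not TGATGA, and Snora44 does not have ACA at that place, so it has no capitals. Of the 8 snoRNA genes in these 4 hosts, 3 touch no annotated exon of the host.

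The snoRNAs themselves were hardly seen, as their counts in the gene table did not pass 6.64 for any snoRNA within the set on either strand. The libraries were selected for polyA and a size range of 100 to 300, per the labels, and the part of these steps in the low counts was not tested. Other known hosts carry the gene type processed_transcript and stood outside. In the 165 genes of other noncoding types that met the limits, 15 host 44 snoRNA genes (9.09% of the 165), with a median of 43.9 TPM. The types are those of the annotation, and the 15 include Cct6a, a gene named for a protein, at 257 TPM. Gas5 was the highest at 434, 455 and 490 TPM, and Snhg15, Snhg5, Zfas1 and Snhg1 had 66.8, 51.3, 45.4 and 43.9 TPM. The snoRNP proteins, which bind snoRNAs, were detected in 9 of 10 listed genes, with a median of 127 TPM. Fibrillarin (Fbl), the methylase, had 156 ± 11.6 TPM, and dyskerin (Dkc1), the pseudouridine synthase, 111 ± 4.43 TPM, while the assembly factor Naf1 had 0.557 TPM. All 8 listed factors of nonsense-mediated decay, a pathway that degrades many spliced host transcripts, were detected, with a median of 22.0 TPM.

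**Figure D3:**
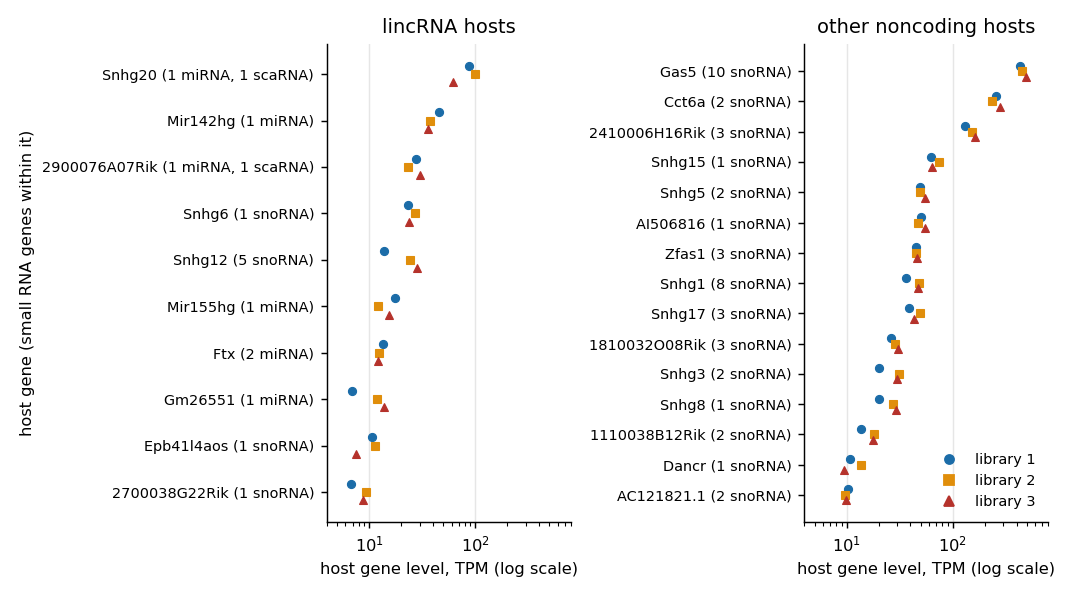
Levels in TPM (log axis) of host genes, 1 point per library, with the number of small RNA genes each holds on its own strand. Left, the 10 hosts of snoRNAs, small Cajal body RNAs or microRNAs within the set, and right, 15 snoRNA hosts of other noncoding types, which reach higher, up to Gas5.

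MicroRNA genes lay on the same strand within 6 genes of the set. Mir142hg (chromosome 11, 87755577 to 87757270), host of the blood-cell microRNA miR-142, had 45.4, 37.6 and 36.1 TPM from 130, 99 and 95 expected counts. Mir155hg (chromosome 16, 84703167 to 84715245) carries miR-155, which Foxp3 is known to induce in regulatory T cells, and had 17.4, 12.1 and 15.5 TPM, lowest in library 2. Ftx, host of miR-421 and miR-374b, had 13.5, 12.4 and 12.2 TPM. 2900076A07Rik, host of Mir1839, had 27.5, 23.3 and 30.4 TPM, and Snhg20, host of Mir6516, 87.5, 99.4 and 61.4 TPM. The latter pair also hold an annotated small Cajal body RNA, so neither counts among the snoRNA hosts. Gm26551 spans the annotated microRNA gene Gm24157 and is described with Tcf7 below.

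Mature sequences from RefSeq (GRCm38.p6) were found for 6 of the 7 microRNA genes. They are shown because they are the known products of hairpins within these hosts, with the seed, bases 2 to 8, in capitals. The hairpins of miR-142a, miR-421 and miR-374b overlap no annotated exon of their host, so the host levels do not measure them. Of those printed, only miR-155 lies in a host exon. The miR-142a arms lie at chr11:87756867-87756887 and chr11:87756903-87756925 and the miR-155 arms at chr16:84714143-84714165 and chr16:84714182-84714202, on the plus strand. The Ftx microRNAs lie on the minus strand of chromosome X, miR-421-5p at chrX:103572966-103572986 and miR-374b-5p at chrX:103573112-103573133.
mmu-miR-142a-5p: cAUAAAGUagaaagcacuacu
mmu-miR-142a-3p: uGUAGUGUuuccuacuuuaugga
mmu-miR-155-5p: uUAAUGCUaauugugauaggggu
mmu-miR-155-3p: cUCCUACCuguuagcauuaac
mmu-miR-421-5p: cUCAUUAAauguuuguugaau
mmu-miR-374b-5p: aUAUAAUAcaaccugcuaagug
The 10 mature sequences of the 6 genes have 10 different seeds. These libraries do not measure mature microRNAs, and the microRNA genes themselves had 6 counts or fewer in any library.

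Genes within 10 kb of, or overlapping, a gene of a list of 212 T cell genes numbered 13, in 15 pairs. Without those that share exonic bases with another gene, an alternative chosen after seeing the data, 7 were left. Seen from the T cell genes that met the same limits, 15 of 192 had such a neighbour (7.81%), against 152 of 8034 other protein-coding genes (1.89%). The list was chosen with the data known, so these shares are a description. In all 15 pairs the T cell gene had the higher TPM in each library.

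Flicr (chromosome X, 7573600 to 7581027) starts just upstream of Foxp3 (7573644 to 7595245), the transcription factor that defines these cells, and is known to lower Foxp3 expression. GENCODE calls it antisense, but both genes lie on the plus strand. Flicr had 26.6, 22.7 and 20.6 TPM and Foxp3 77.6, 86.2 and 59.2 TPM, so the mean of Flicr was 31.4% of that of Foxp3. Flicr was highest in library 1 and Foxp3 in library 2, and neither set of values overlaps the other. Of the Flicr transcript of 3467 bases, 24.6% lies in exons of Foxp3 on the same strand, and 8.94% in exons of Ppp1r3f on the other.

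Genes of surface receptors and their signals came next. Gm16008, at 19.8, 15.6 and 15.5 TPM, lies against Tnfrsf18, the gene of GITR, at 652, 586 and 530 TPM, and 5396 bases from Tnfrsf4, the gene of OX40, at 825, 665 and 618 TPM. Both receptors are costimulatory, and 51.1% of Gm16008 is in Tnfrsf18 exons. Gm48719, at 10.1, 18.8 and 17.7 TPM, has 37.4% of its bases in exons of Cd3e, a chain of the T cell receptor complex, at 1243, 1273 and 1461 TPM. Both Gm16008 and its receptors were highest in library 1, while both Gm48719 and Cd3e were lowest there. Gm14718 lies 7765 bases before Cd40lg, the gene of CD40 ligand, without exonic overlap. It had 5.46, 8.67 and 16.8 TPM and Cd40lg 55.1, 79.0 and 93.3 TPM, so both stood lowest in library 1 and highest in library 3.

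Further pairs involve the surface protein Thy1, the adaptor Skap1 and the membrane protein Ms4a6b. Gm39323 lies head to head with Thy1 at 2325 bases, and had 9.71, 11.8 and 12.5 TPM against 110, 167 and 191 TPM. 2010300F17Rik, within Skap1 on the other strand, had 9.69 ± 1.75 TPM, and Gm19261, at the start of Ms4a6b, 10.4 ± 1.91 TPM. Their T cell genes were far higher, with 708 and 884 TPM.

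Transcription factor genes made up most other pairs. Gm26551 (chromosome 11, 51949882 to 52269514) overlaps Tcf7, a factor of resting T cells, on the same strand but shares no exon with it. It had 6.93, 11.8 and 13.7 TPM and Tcf7 181, 251 and 329 TPM, again lowest in library 1 and highest in library 3. Gm12000, within Ikzf1, the gene of Ikaros, had 8.21, 11.8 and 12.7 TPM against 48.7, 68.3 and 66.9 TPM. Gm15417 overlaps Zbtb7b, which fixes the CD4 lineage, and had 9.63, 8.64 and 9.10 TPM against 46.6, 53.3 and 35.8 TPM. Gm31812 lies 932 bases from the end of Stat4, which transmits cytokine signals, and had 6.30, 5.51 and 7.01 TPM against 196, 168 and 201 TPM.

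In the last pairs, Lockd lies 3579 bases after Cdkn1b, an inhibitor of the cell cycle, and is known as a transcribed enhancer of that gene. Lockd had 26.7, 18.2 and 26.9 TPM and Cdkn1b 36.2, 41.5 and 43.4 TPM, the smallest ratio of means of the 15 pairs (1.69). 1300014J16Rik, head to head with Zfp36l1, an mRNA decay factor, had 11.5, 11.7 and 10.6 TPM against 135, 119 and 95.5 TPM. With a limit of 50 kb, 19 genes had a T cell neighbour. The additions included 2310001H17Rik, 28600 bases from the activation marker Cd69 at 118 TPM, and thus the only one of the 19 with a mean above a T cell neighbour. They also held Gm14005, known as Morrbid, 15772 bases from its target Bcl2l11, the gene of the death factor Bim, at 16.6 and 25.3 TPM.

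**Figure D4:**
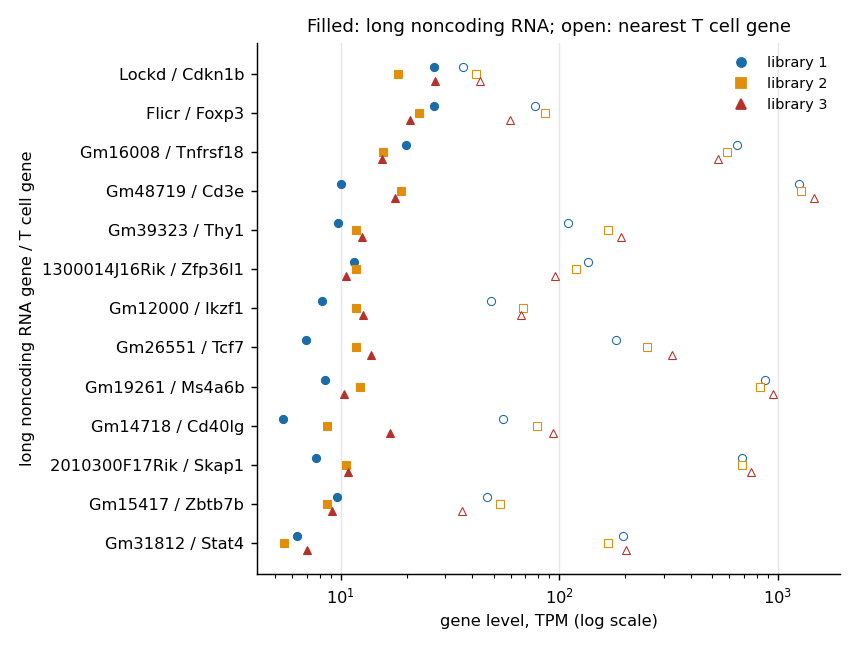
Levels in TPM (log axis) of long noncoding RNA genes (filled) and of the nearest T cell gene within 10 kb of each (open), 1 point per library and 1 row per long noncoding RNA. In each of the 13 rows every open point lies to the right of the filled point of the same library, closest for Lockd and Cdkn1b.

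The only test the design allows asks whether libraries differ beyond counting error, which concerns the libraries and no condition. It is a chi-square test of each gene's rounded expected counts against Poisson sampling, with Benjamini-Hochberg adjustment over 14877 genes and a limit of 0.05. Of the 185 genes, 105 differed (56.8%), against 63.9% of all genes tested and 6428 of 8226 protein-coding genes that met the limits (78.1%). The power of this test grows with the count, so shares are compared without a test. The median coefficient of variation of TPM was 14.4%, against 11.7% in those protein-coding genes. A more than 2-fold range between libraries was found in 17 genes, or 9.19%, against 15.0%. Without library 3, 59 of the 185 genes differed (31.9%), against 30.2% of all genes.

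The size of a difference is given here as the log2 ratio of scaled counts in the farthest library to the mean of the others, with the adjusted p of this chi-square test after Benjamini-Hochberg adjustment. Snhg20 was lower in library 3 (-0.73, Benjamini-Hochberg adjusted p 1.49e-22). In library 1, the snoRNA host Snhg12 was lower (-1.13, Benjamini-Hochberg adjusted p 4.94e-10), as was Gm26551 (-0.92, adjusted p 2.15e-16). Flicr was higher in library 1 by a smaller amount (0.26, Benjamini-Hochberg adjusted p 5.29e-06). Mir155hg, the host of miR-155, was lower in library 2 (-0.43, Benjamini-Hochberg adjusted p 0.00339). Gm16008, beside GITR, had a ratio of 0.32 in library 1 with a Benjamini-Hochberg adjusted p of 0.101 and did not pass.

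For genes that differed by this test, the library farthest from the others was counted with its direction. Genes that did not differ are in none of these counts, but each share is of all 185 genes or of all genes tested. Library 1 was farthest and low in 35 of the 185 genes, or 18.9%, against 8.94% of all genes tested, and far and high in 2, or 1.08%, against 5.04%. Library 3 was farthest and high in 30 genes, or 16.2%, against 13.4%, and far and low in 17, or 9.19%, against 24.8%. Library 2 was farthest and low in 17 (9.19%, against 7.82%) and high in 4 (2.16%, against 3.84%). Whether or not a gene differed by the test, the highest TPM was in library 3 for 99 of 185 genes, or 53.5%. The share was 38.0% of the protein-coding genes that met the limits. Of the 13 neighbours of T cell genes 8 differed, a share near the 63.9% of all genes tested. Among the 8, 5 were low in library 1, the commonest call in the set, with Gm26551, Gm48719 and Gm12000 among them. Without library 3, the Benjamini-Hochberg adjusted p of the chi-square test was 0.061 for Gm12000 and 0.096 for Lockd, so these calls among the 8 were lost.

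Among called genes with at least 10 TPM, Gm26917 had the largest range between libraries on the log2(TPM + 1) scale, and Gm26870 the largest ratio of highest to lowest TPM, 3.92 against 3.86. Gm26917 (chromosome 17, 39843013 to 39846341) had 741, 702 and 192 TPM from 31670, 27576 and 7545 expected counts, a chi-square of 13204. Gm42418, beside it (39846958 to 39848788), had 29.1, 41.9 and 12.4 TPM, and 99.5% of its bases lie in exons of AY036118 and CT010467.1 on the other strand. This stretch of mm10 is known to hold a copy of the ribosomal RNA precursor. The transcript of Gm26917 is 1 exon of 3329 bases with 69.1% GC, and its longest run of A is 4 bases. Gm26870, at the assembled start of chromosome 9, went the other way with 7.10, 11.9 and 27.8 TPM, and has 62.2% of its bases in exons of Gm10719, Gm10721 and Gm11168. Gm12840 had 15.1, 32.1 and 44.4 TPM and Gm20275 6.16, 13.7 and 17.3 TPM, and Gm14718 was described with Cd40lg.

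Base composition moved with the deviation of library 3. Across the 185 genes, the log2 ratio of library 3 to the mean of the others had a Spearman rho of -0.257 with the highest GC content of any 200 bases of the leading transcript. Across the 8226 protein-coding genes it was -0.532. Genes share the libraries and are no independent replicates, so these are descriptions. The median of that GC content was 57.5% in the set and 64.5% in protein-coding genes. Snhg20, with 72.0%, was lowest in library 3, as were Gm26917 with 79.5% and Gm42418 with 74.5%, whereas Gm26870 had 39.0%. Tmem250-ps, with 79.0%, deviated in the opposite direction, by 0.34, and Ino80dos, with 81.0%, by -0.01. The part of base composition in the differences between libraries was not tested.

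**Figure D5:**
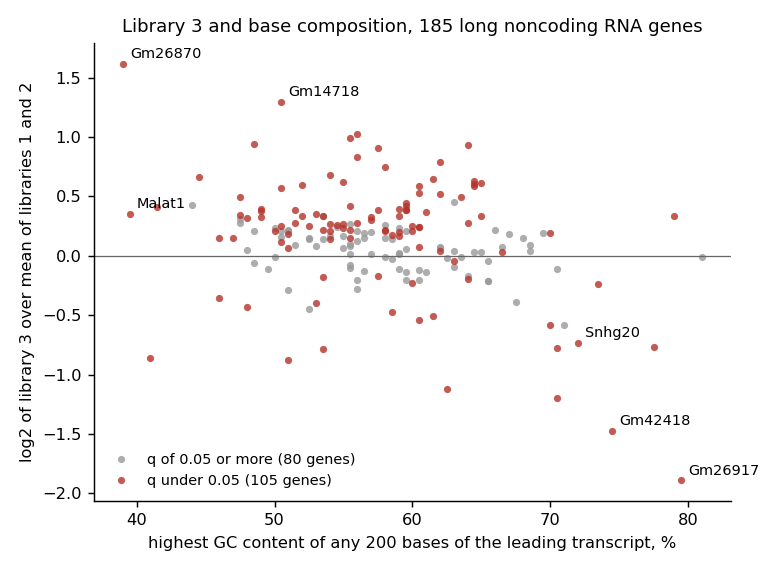
For each of the 185 long noncoding RNA genes, the log2 ratio of scaled counts in library 3 to the mean of libraries 1 and 2, against the highest GC content of any 200 bases of the leading transcript, in percent. Red points mark the 105 genes with an adjusted p under 0.05, and the labelled genes with over 70% GC lie below 0, with Gm26917 lowest at -1.89.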

How the data were processed

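PolyA-selected RNA was measured in 3 libraries of 1 group, grouped by the labels' technical replicate numbers. The authors deposited per library a gene and a transcript table with expected counts (estimated reads), TPM and FPKM on mm10 and GENCODE M21, and the share of each transcript in its gene's TPM in percent, per the file headers and the text deposited beside them. A second deposited gene table holds whole-number counts on GENCODE M4. For the aligner, the counter and strandedness, no statement was found in the labels or headers. Types, positions and sequences came from the GENCODE M21 annotation, microRNAs from RefSeq.

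Expected counts were rounded, genes averaging under 10 counts dropped, and libraries scaled with TMM (edgeR 4.0.16). The chi-square test was also run on counts simulated with the Poisson sampling it assumes. That run cannot show whether rounded expected counts follow such sampling. Deviations are log2 of scaled counts plus 0.5. Named were the 12 highest genes, all hosts of snoRNAs or microRNAs, all genes within 10 kb of a T cell gene, the 6 with the largest log2(TPM + 1) range between libraries among called genes with at least 10 TPM, the 3 nearest the limits on each side, known noncoding RNAs, neighbours of these and 3 protein lists. Other examples (Gm45552, Gm20400, Gm44709, Gm17041, Gm44170, Gm10076, Tmem250-ps, Ino80dos, Gt(ROSA)26Sor) were chosen after their values were seen. Members, lists and tests were chosen with earlier results of these data known. The values of 1 pair with a T cell gene are not reported here. Replicates are technical, so p-values measure only their spread. Intervals and floors cover counting error only. Alternatives were other limits, gene types, DESeq2 size factors, filters, windows and leaving out each library.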

Additional observations from a re-analysis of the deposited data

How the results depend on the processing

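No paired analysis was possible because the series has 1 group. The count of 185 genes became 470 at a TPM limit of 1, 114 at a limit of 10, 350 with other noncoding gene types added and 109 without genes that share exonic bases with another gene (chosen after seeing the data), and was 195 to 205 without 1 library. The count of genes that differ between libraries was 9501 of all genes tested (63.9%) and 105 of the set (56.8%). In the second gene table it was 6222 of all genes tested (56.7%) and 0 of the set. Only 5 genes of the set could be tested there by the chi-square test (0 also at an unadjusted p under 0.05). Among the 109 genes of the set without exonic overlap, 66 differed, or 60.6%. With 1 library left out, the count ranged from 4489 to 8029 over all genes (30.2 to 53.9%). In the set it ranged from 59 to 86 (31.9 to 46.5%), and both were lowest without library 3. The 4 snoRNA hosts became 19 with other noncoding types. The 13 neighbours of T cell genes became 7 without exonic overlap. The share of TPM, 1.21%, was 1.28% over nuclear genes, 0.770% in expected counts and 0.688% without Malat1. The leading transcript's share of TPM, 97.95%, fell to 69.6% among genes with more than 1 annotated transcript. The mean of Malat1, 5223 TPM, became 429 with its reads on the full-length transcript and 818 with those of Gm37376 added. For 38 named genes tested singly, the other settings were DESeq2 size factors and leaving out a library other than the farthest. The farthest library was never left out, so these results cannot show whether a difference rests on it alone. Of these results of the library test, 110 kept direction and side of the limit. Another 4 fell short of the limit, all without library 3 (1810058I24Rik, 2900076A07Rik, Lockd and Gm12000). The cause of these shifts was not tested. Depth limits low genes, since the lowest count of a gene of the set in a library was 28.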
